A study of Mus musculus with 2 samples.

Results

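The genes described here encode the machinery that moves newly made proteins into the endoplasmic reticulum (ER) and out of it again. They were taken as a fixed list of 54 gene symbols, matched to the gene names of the deposited tables and grouped by role. Their measured levels did not set the list, but it was chosen with earlier results of these data known. Of the 54, 53 had a row in the tables and Mia3 had none under that name. Srprb and Kdelr3 were listed at 0 in both libraries. The other 51 were all among the 10533 genes, of 37146 in the tables, that passed the filter on low values (a mean of at least 1 FPKM). FPKM counts fragments scaled by row length and library size, so levels can be compared between genes. The study dosed CD-1 mice, an outbred strain, by mouth with titanium dioxide nanoparticles (NP) at 50 mg per kg body weight daily. Controls received the same volume of phosphate-buffered saline. The particles were dispersed with ultrasound, and a stirring time of 30 min was listed for them. Liver RNA of each group was represented by 1 library, called Control and NP here. The sources used here do not give age, sex, duration or how many mice a library holds.

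Secreted and membrane proteins are recognised by the signal recognition particle (SRP) as their signal sequence leaves the ribosome, and are handed to the Sec61 channel in the ER membrane. Signal peptidase then removes the signal, and oligosaccharyltransferase (OST) adds N-linked sugars to the growing chain. Folded cargo leaves in vesicles coated with COPII, while COPI vesicles bring escaped ER proteins and receptors back. Hepatocytes use this route heavily, since they secrete most plasma proteins, and many of its genes are known targets of the unfolded protein response, the ER stress programme that the study's title names.

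No test, standard error or p-value can be given for any difference between 1 library and another. The error printed with each level is the 95% interval that Cufflinks gave for that library, which holds no spread between animals. Statements below are about these 2 libraries. NP was the more deeply covered, with a read coverage per FPKM of 2.92 against 2.29. The liver label held: Alb was at 21660 FPKM in Control and 30741 in NP, and all 8 hepatocyte markers were above 0. Their summed level, most of it Alb, was 38762 FPKM in Control and 49326 in NP. The NP interval was above for 5 of them and below for 2, Cyp2e1 (5880 and 4812 FPKM) and Ass1 (67.5 and 41.0 FPKM, past 1.5-fold lower). Markers of 3 other liver cell types were mostly lower in NP. All 8 sinusoidal endothelial genes had a lower value there (sum 94.1 and 70.9 FPKM), as had all 9 Kupffer cell genes (54.5 and 34.4) and 9 of 10 stellate cell genes (106 and 86.1). Cholangiocyte genes had a sum of 17.6 and 14.2 FPKM, with 3 of 5 higher in NP. Of 10 pancreatic acinar genes 9 were above 0 in Control, with Ctrb1 at 4.92, Pnlip at 2.35 and Cela3b at 2.21 FPKM, while 7 were listed at 0 in NP. The acinar sum was 28.0 and 9.14 FPKM, of which Cela1 made up 12.6 and 8.95. Plasma and B cell genes were at a sum of 74.6 and 95.7 FPKM, nearly all of it Sdc1, which hepatocytes also express, and Igj was at 1.26 and 2.33. Of these 8 genes 4 were higher in NP and 4 lower. The part of these shifts in the results below was not tested. In whole liver, fewer cells of a type and less RNA per cell cannot be told apart.

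The secretory genes as a whole differed little between the libraries. Their median log2 ratio, log2((NP + 1)/(Control + 1)) of FPKM, was 0.08 over the 51 genes, beside -0.03 over all 10533. The ratio was above 0 for 32 and below 0 for 19 of them, where 45.6% of all genes were above 0. At a size rule of 1.5-fold on this scale, 1 gene was higher (Preb) and 1 lower (Sec61g), beside 3.60% and 5.33% of all genes. Intervals are narrow at these levels, with a median upper half-width of 8.30% in Control and 7.87% in NP, so smaller differences could separate them. At a lower size rule, a ratio of 5 to 4, 7 genes were higher and 2 lower, beside 10.2% and 14.0% of all genes. For 12 of the 51 genes the whole NP interval was above the Control interval, where 7.73% of all genes had this, and for 3 it was wholly below, where 9.58% did. Among all genes with a mean of 10 to 200 FPKM, a range chosen after the values were seen because most of the 51 lie in it, these shares were 9.42% and 11.9%. The summed level of the 51 genes was 2203 FPKM in Control and 2321 in NP.

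**Figure D1:**
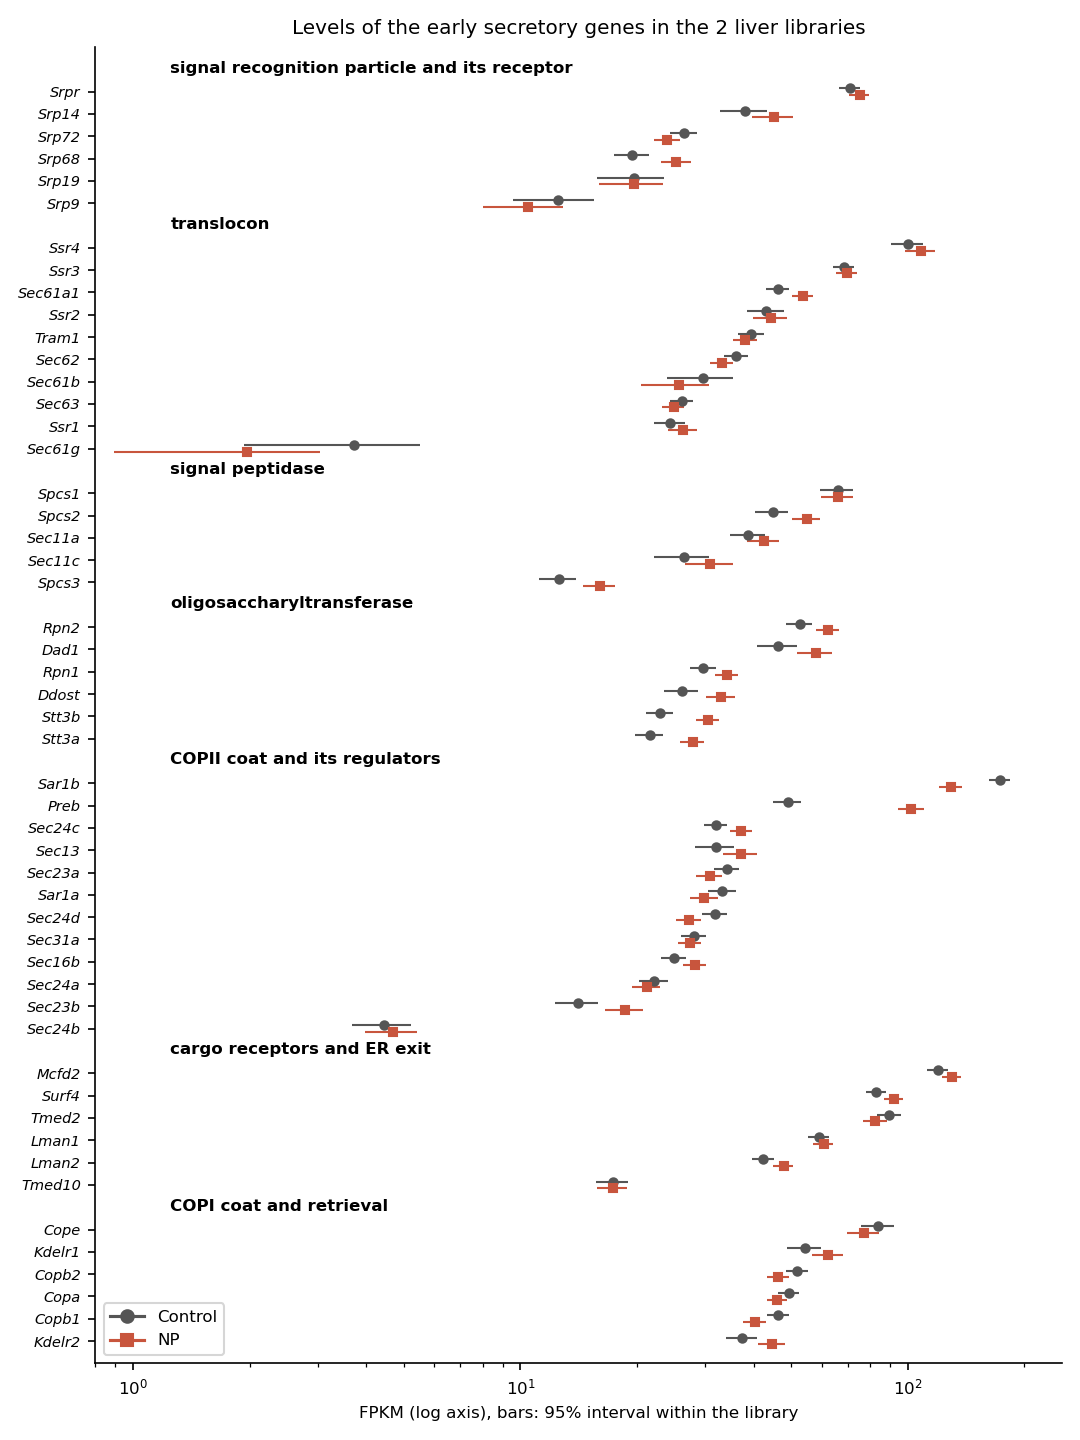
FPKM of the 51 secretory genes above 0 (log axis) in the Control library (grey circles) and the NP library (red squares), with the 95% interval within each library, ordered by mean level inside each role group. Sar1b is highest and Sec61g lowest, and most pairs of intervals overlap.

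Levels covered a wide range within single complexes. Sar1b, the GTPase that starts COPII coat assembly and is needed to export large lipoproteins, was the highest at 173 FPKM in Control and 129 in NP. In Control it was at or above 95.8% of all genes that passed. Mcfd2 (119 and 130 FPKM) and Ssr4 (99.9 and 108) followed. The lowest were Sec24b (4.45 and 4.68 FPKM), a cargo adaptor of the COPII coat, and Sec61g, the smallest subunit of the Sec61 channel.

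The genes of signal recognition were alike in both libraries, apart from Srp68. Srp68, which pairs with Srp72 in SRP, had 19.5 FPKM (17.4 to 21.5) in the Control library against 25.3 (23.0 to 27.5) with NP, 1.30-fold higher. Its partner Srp72 was at 26.5 (24.4 to 28.6) and 24.0 (22.1 to 25.8) FPKM, so the subunits of this pair lay on opposite sides of 1. Srp9 and Srp14, which pair to slow translation while SRP is bound, also differed in direction, at 12.5 and 10.4 FPKM for Srp9 and 38.0 and 45.1 for Srp14, with overlapping intervals. Srp19, an assembly factor of the particle, was at 19.6 and 19.7 FPKM. The receptor subunit Srpr was at 70.7 (66.4 to 75.1) and 75.1 (70.7 to 79.5) FPKM. Srprb, the subunit that anchors the receptor in the membrane, was listed at 0 in both, and a 0 in these tables can be a failed estimate. Its span on chromosome 9 shares bases with a 2nd gene identifier named Trf, also listed at 0. The median log2 ratio of the 6 measured genes was 0.04.

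Of the 10 translocon genes, Sec61a1 alone had separate intervals, where 7.73% of all genes had the NP interval above and 9.58% below. Sec61a1, which forms the pore (mm9 chromosome 6, 88453595 to 88468899), had 46.1 FPKM (42.9 to 49.3) in the Control library against 53.6 (50.2 to 57.0) with NP, 1.16-fold higher. The other channel subunits did not share its direction. Sec61b was at 29.6 (23.9 to 35.3) and 25.6 (20.5 to 30.7) FPKM. Sec61g was at 3.72 (1.94 to 5.50) and 1.97 (0.894 to 3.04) FPKM, so the only gene past 1.5-fold lower had overlapping intervals and low levels. Sec62 and Sec63, which serve the channel in import after translation, had 36.1 and 33.1 FPKM for Sec62, and 26.1 and 24.9 for Sec63. Tram1, a membrane protein beside the channel, was at 39.5 and 38.1 FPKM. The 4 subunits of the translocon-associated protein complex were all slightly higher in NP with overlapping intervals: their log2 ratios ran from 0.02 for Ssr3 (68.4 and 69.6 FPKM) to 0.11 for Ssr4. The median of the 10 translocon genes was -0.01.

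Signal peptidase genes were higher in NP or level. Spcs3, a subunit needed for cleavage, was at 12.6 FPKM (11.2 to 13.9) and 16.0 (14.5 to 17.5), 1.27-fold higher. Spcs2, an accessory subunit, was at 44.8 (40.4 to 49.1) and 54.8 (50.1 to 59.5) FPKM. These were the signal peptidase genes with separate intervals. The catalytic subunits Sec11a (38.8 and 42.5 FPKM) and Sec11c (26.4 and 31.0) had overlapping intervals, and Spcs1 was at 65.9 FPKM in both. The median log2 ratio of the 5 genes was 0.22.

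The oligosaccharyltransferase genes had the highest median of the 7 role groups, 0.32, and all 6 had a ratio above 0. Stt3b and Stt3a, the alternative catalytic subunits that act after and during translocation, were highest in ratio. Stt3b (mm9 chromosome 9, 115151725 to 115219539) had 23.0 FPKM (21.1 to 24.8) in the Control library against 30.5 (28.4 to 32.6) with NP, 1.33-fold higher. Stt3a was at 21.6 (19.8 to 23.4) and 27.8 (25.8 to 29.9) FPKM, 1.29-fold higher. The balance between the catalytic subunits was alike, with Stt3b at 51.5% of their sum in Control and 52.3% in NP. Ddost, a structural subunit, was at 26.1 (23.5 to 28.7) and 33.0 (30.2 to 35.9) FPKM. Rpn2, ribophorin II, was at 52.6 (48.6 to 56.6) and 62.1 (57.9 to 66.3) FPKM. These 4 genes had an NP interval above the Control interval. For Rpn2, the transcript row with separate intervals was typed as a processed transcript in GENCODE M21, at 36.1 and 43.9 FPKM. Its protein-coding row was at 16.5 (14.4 to 18.7) and 18.2 (16.1 to 20.4) FPKM, with overlapping intervals. For Rpn1, ribophorin I (29.7 and 34.1 FPKM), and Dad1, a small subunit (46.3 and 57.8 FPKM), the intervals overlapped narrowly, 31.7 against 31.9 and 51.7 against 51.9 at the bounds that face each other. None of the 6 reached 1.5-fold, and their summed level was 199 FPKM in Control and 245 in NP.

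**Figure D2:**
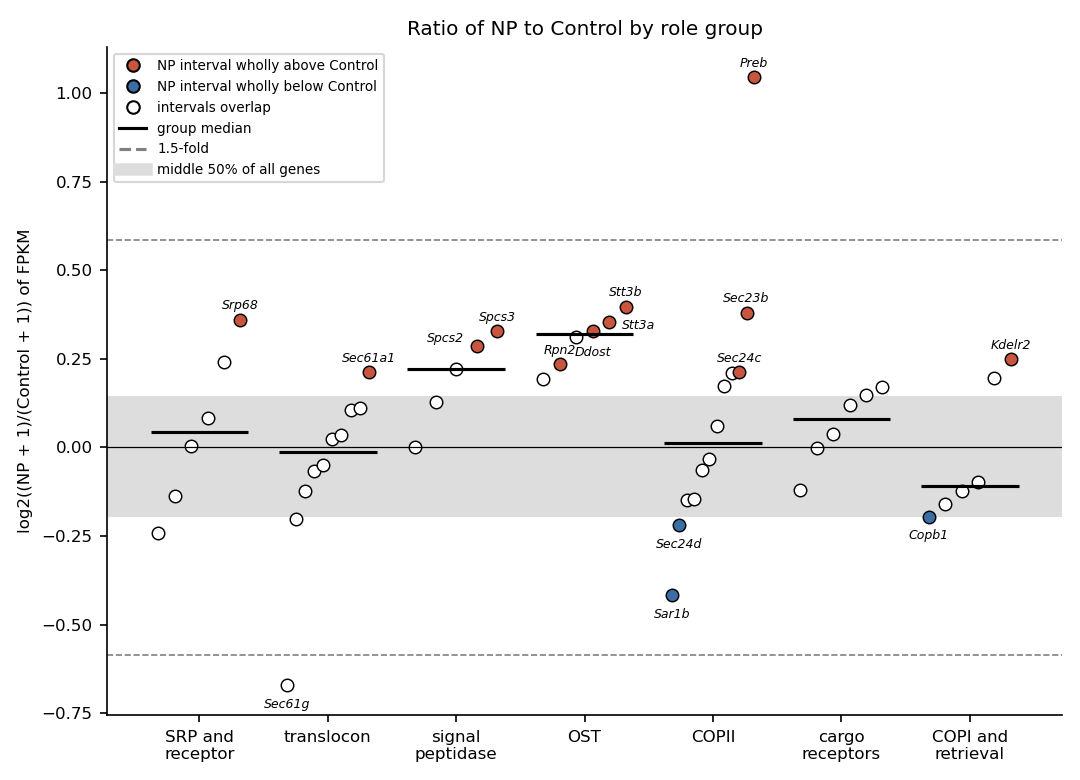
Ratio of NP to Control as log2((NP + 1)/(Control + 1)) of FPKM for each of the 51 genes, by role group. Red and blue points have an NP interval wholly above or below that of Control, white points overlap, short lines are group medians, dashed lines mark 1.5-fold and the band holds the middle 50% of all genes. All 6 OST points lie above the band, and the COPII group holds both the highest point (Preb) and the lowest with separate intervals (Sar1b).

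The rest of that complex did not share one direction. The 6 remaining OST subunits came from the list of other glycosylation genes and are all given here, a choice made after the values were seen. Ostc was at 36.8 (32.4 to 41.2) and 47.7 (42.8 to 52.6) FPKM, with an NP interval above. Ost4 (55.9 and 55.4 FPKM), Krtcap2 (42.0 and 46.6), Tmem258 (31.4 and 28.7) and Tusc3 (3.30 and 3.06) had overlapping intervals. Magt1, which with Tusc3 serves the Stt3b form of the enzyme, was at 17.2 and 14.7 FPKM, also overlapping. In the wider list of 37 measured glycosylation genes, 3 were at least 1.5-fold higher and 0 lower, beside 3.60% and 5.33% of all genes, and the median was 0.05. Those 3 were Alg12 (2.98 and 7.03 FPKM) and Alg2 (5.45 and 9.36), mannosyltransferases that build the sugar precursor, and Gfpt1 (5.34 and 8.65), the entry enzyme of the hexosamine pathway.

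The COPII group was split, with 6 ratios above 0 and 6 below, and a median of 0.01. Sar1b (mm9 chromosome 11, 51577189 to 51605427) had 173 FPKM (162 to 184) in the Control library against 129 (121 to 138) with NP, 1.34-fold lower, the largest difference with separate intervals in that direction. Sar1a, its paralog, was at 33.2 (30.4 to 35.9) and 29.8 (27.4 to 32.3) FPKM. The sum of the Sar1 genes was 206 and 159 FPKM. The inner coat genes differed in direction. Sec23a was at 34.1 (31.5 to 36.8) and 30.8 (28.5 to 33.1) FPKM, and Sec23b at 14.1 (12.3 to 15.9) and 18.6 (16.6 to 20.7), so Sec23b made up 29.2% of the Sec23 sum in Control and 37.7% in NP. That sum itself was 48.2 and 49.4 FPKM.

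A like shift was seen among the Sec24 adaptors, which select cargo. Sec24c was at 32.0 (29.8 to 34.2) and 37.2 (34.8 to 39.6) FPKM, with the NP interval above, and Sec24d at 31.8 (29.5 to 34.1) and 27.2 (25.2 to 29.2), with the NP interval below. The Sec24d intervals overlapped once NP was rescaled to a median ratio of 1 over all genes. Sec24a (22.2 and 21.2 FPKM) and Sec24b had overlapping intervals. The Sec24 sum was 90.4 and 90.3 FPKM, while the share of Sec24c was 35.4% and 41.2% and that of Sec24d 35.2% and 30.1%. The outer coat genes Sec13 (31.9 and 37.0 FPKM) and Sec31a (28.1 and 27.4) had overlapping intervals, as had Sec16b (24.9 and 28.2), a scaffold of ER exit sites.

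Preb, the ER exchange factor that loads Sar1 with GTP, had 49.0 FPKM (45.0 to 53.1) in the Control library against 102 (94.3 to 110) with NP. The whole of that difference lay outside the transcript of 1869 nt, which held all of its value in Control. The transcript of 1869 nt was at 49.0 (45.0 to 53.1) and 46.1 (42.3 to 49.9) FPKM, with overlapping intervals. A transcript of 724 nt (mm9 chromosome 5, 31258305 to 31261037) was listed at 0 in the Control library against 52.4 FPKM (45.6 to 59.3) with NP, and the row for the gene span was at 0 and 3.65 FPKM. Preb shares 4239 bases of its span with Abhd1, annotated on the opposite strand. Abhd1 ends at 31257464, so the 724 nt transcript shares no base with it. The 1869 nt transcript, whose span begins at 31257416, and the gene-span row of Preb overlap it. Neither Preb transcript was matched to a type in GENCODE M21, nor was that of Abhd1. Abhd1 showed the reverse pattern, with 43.5 FPKM (39.2 to 47.9) in the Control library and 0 listed for NP. FPKM times row length in kb, which leaves fragments scaled by library size only, was 91.6 for Preb and 58.9 for Abhd1 in Control. In NP it was 159 for Preb, and the sum over both genes was 151 without and 159 with NP, a ratio of 1.05. The part of this overlap in the value of Preb was not tested. With the largest row of each gene in place of the sum, Preb was not past 1.5-fold, and no other secretory gene was 1.5-fold higher.

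**Figure D3:**
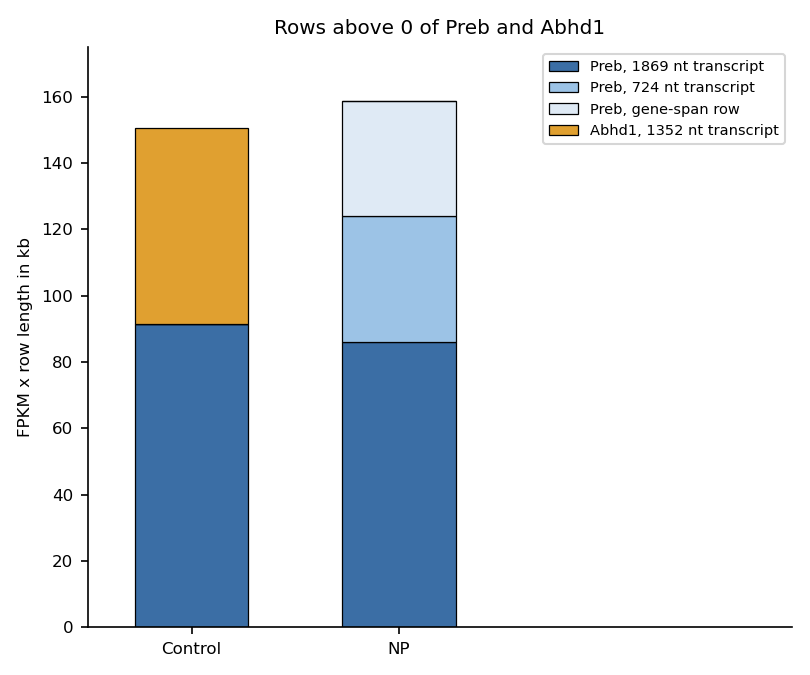
FPKM times row length in kb, stacked over the rows of Preb and Abhd1 that were above 0, in the Control and NP libraries. The stacks reach 151 and 159, the 1869 nt Preb transcript is alike in both, and Abhd1 appears in Control only.

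Cargo receptors of the ER exit step showed no separate intervals in the 6 measured genes. Over all genes 7.73% had the NP interval above and 9.58% below, so this does not set so small a group apart. Lman1, a lectin, and Mcfd2 together carry coagulation factors V and VIII. Lman1 was at 59.0 (55.2 to 62.7) and 60.6 (56.9 to 64.3) FPKM, and Mcfd2 at 119 (112 to 127) and 130 (122 to 137). Their cargo genes F5 (103 and 95.5 FPKM) and F8 (0.914 and 0.804, too low to pass the filter) also had overlapping intervals. Surf4, a receptor for several secreted proteins, was at 82.9 (78.1 to 87.7) and 92.1 (87.0 to 97.1) FPKM, and Lman2, another lectin, at 42.3 and 47.8. The p24 family genes Tmed2 and Tmed10 had 89.6 and 82.4 FPKM for Tmed2, and 17.3 FPKM in both libraries for Tmed10. The median of the 6 genes was 0.08.

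The COPI group held 2 opposite parts. All 4 coat subunits were lower in NP by their summed rows, with log2 ratios from -0.19 to -0.10. With the largest row of each gene instead, the median of the whole group turned from -0.11 to 0.13, and the leading rows of Copa and Cope had ratios of 1.23 and 1.12. Copb1 (mm9 chromosome 7, 121359073 to 121398225), beta-COP, was at 46.4 FPKM (43.2 to 49.5) and 40.4 (37.6 to 43.1), the coat subunit with separate intervals, which overlapped under the same rescaling of NP. Copb2 was at 51.9 (48.4 to 55.3) and 46.3 (43.2 to 49.4), Copa at 49.4 and 46.1 and Cope at 83.9 and 77.0 FPKM, all overlapping. The KDEL receptors, which return ER chaperones in these vesicles, were higher. Kdelr2 was at 37.4 (34.0 to 40.8) and 44.7 (41.0 to 48.3) FPKM, and Kdelr1 at 54.3 (48.9 to 59.7) and 62.4 (56.7 to 68.1) with overlapping intervals. Kdelr3 was listed at 0 in both. The remaining coat subunits, all given from the list of other COPI genes after their values were seen, were mixed in direction. Copg was at 28.6 (26.3 to 31.0) and 35.8 (33.3 to 38.4) FPKM with the NP interval above. Copg2 (7.36 and 5.53 FPKM) and Arcn1 (39.4 and 37.0) had lower values in NP, and Copz1 (59.8 and 62.2) and Copz2 (9.57 and 13.9) higher ones, all with overlapping intervals.

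Several genes whose sums were alike differed between transcript rows. Of 71 transcript rows of the 51 genes that were above 0 in a library, the NP interval lay above for 15 and below for 6, beside 15.1% and 16.3% of the 15424 such rows of all genes that passed. In 34 genes 1 transcript carried all of the signal outside the gene-span row. Tmed2 and Copa had 1 row above and another below. The Tmed2 transcript of 1630 nt was at 67.6 (61.9 to 73.3) and 52.1 (47.3 to 56.9) FPKM, and that of 2074 nt at 21.9 (19.0 to 24.9) and 30.2 (27.0 to 33.5). The Copa transcript of 3956 nt was at 25.3 (23.1 to 27.6) and 31.1 (28.7 to 33.4) FPKM, while that of 4351 nt was at 7.88 (6.74 to 9.01) in Control and listed at 0 in NP. Cope was lower through its transcript of 715 nt, at 39.2 (32.5 to 45.8) and 25.7 (20.5 to 31.0) FPKM. Its transcript of 1300 nt was at 44.7 and 50.0 FPKM. The higher value of Sec23b included a transcript of 2417 nt, typed as a processed transcript, listed at 0 in the Control library and at 2.82 FPKM with NP. Its transcripts of 2779 nt, typed as protein-coding (7.22 and 6.85 FPKM), and 2770 nt (6.86 and 8.94) had overlapping intervals. In Sec11c a transcript of 2768 nt, typed as a retained intron in GENCODE M21, was at 2.57 (1.87 to 3.26) and 5.07 (4.12 to 6.02) FPKM. Rows of a gene share reads, so single rows are less certain than sums.

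**Figure D4:**
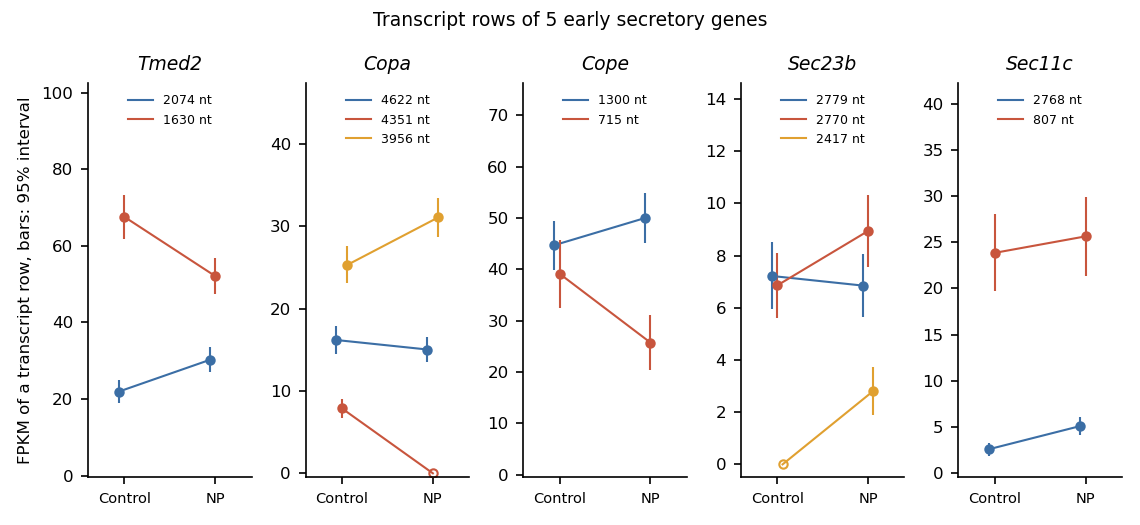
FPKM of each transcript row above 0 in Control and NP, with the 95% interval within the library, for 5 genes, rows named by their length. Open circles are rows listed at 0. The lines of Tmed2 slope in opposite directions, and the 715 nt row of Cope is at 39.2 and 25.7 FPKM.

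Promoter sequences were searched because the unfolded protein response acts through known DNA elements. The letters searched were TGACGTGG, the core of the unfolded protein response element (UPRE) bound by the Xbp1 and Atf6 products, and the ER stress response element (ERSE), CCAAT and CCACG with 9 bases of any kind between them. The variant ERSE-II, ATTGG and CCACG with 1 base between them, was the last. All were searched on both strands, from 250 bases before to 50 after each annotated start in RefSeq (GRCm38.p6), and all hold the letters CCACG or their complement. Motifs were chosen after the expression values were seen. Of the 54 genes, 44 had a promoter in the table. UPRE letters were found in 6 of the 44 (13.6%), beside 193 of all 27025 genes (0.714%), and all 6 belong to the COPII and COPI groups. Like shares were seen in 3 of 23 other COPI genes, 2 of 20 ER luminal chaperones and 2 of 17 ER-associated degradation genes. Of other COPII and ER exit genes 1 of 44 held these letters. The share was 0 of 25 other signal recognition genes, 0 of 33 other glycosylation genes and 0 of 23 clathrin and retromer genes. ERSE letters were in 0 of the 44, beside 37 of all genes (0.137%), and ERSE-II letters in 0, beside 12 of all genes. In the list of ER luminal chaperones, 7 of 20 genes with a promoter held ERSE, Hspa5 among them, and 1 held ERSE-II. Of 17 ER-associated degradation genes 2 held ERSE, Derl3 and Syvn1, and 1 held ERSE-II, Herpud1. Other glycosylation genes held ERSE in 1 of 33, Alg12. Other signal recognition genes held it in 1 of 25, a gene also in the chaperone list. The other COPII, other COPI and clathrin and retromer lists held neither ERSE nor ERSE-II. The windows of the 6 genes with UPRE letters are shown because they hold the only motif found in promoters of the 44. Capitals mark the UPRE letters, or CCACGTCA where they lie on the other strand, and each window reads 5′ to 3′ along the gene.
Sec24d: gcccgggcgccTGACGTGGcactagcaacc
Sec16b: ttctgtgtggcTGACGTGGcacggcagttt
Sec23a: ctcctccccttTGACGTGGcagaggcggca
Copb1: cccgcccccttCCACGTCAgccaaggactt
Copb2: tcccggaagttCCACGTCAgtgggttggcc
Kdelr3: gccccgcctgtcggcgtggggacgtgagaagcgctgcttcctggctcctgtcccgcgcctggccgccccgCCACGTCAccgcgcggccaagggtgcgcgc

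In GRCm38.p6 these windows are chr3:123267459-123267488 (Sec24d, plus strand), chr1:157506741-157506770 (Sec16b, plus), chr12:59011993-59012022 (Sec23a, minus), chr7:114254690-114254719 (Copb1, minus), chr9:98563713-98563742 (Copb2, plus) and chr15:79516308-79516407 (Kdelr3, plus). Counted from the annotated start as base 1, with no base 0, the letters begin at -26 in Sec24d, -44 in Sec16b, 7 in Sec23a, -28 in Copb1, -7 in Copb2 and -30 in Kdelr3. The Sec24d and Sec16b windows lie wholly within exons annotated in GENCODE M21, counting exons of any gene. Such exons hold 25 of the 30 bases shown for Sec23a, 22 of 30 for Copb1 and for Copb2, and 0 for Kdelr3. Of these 6 genes, Sec24d and Copb1 had an NP interval wholly below that of Control, Sec23a, Copb2 and Sec16b overlapped, and Kdelr3 was at 0. Of the secretory genes with a promoter, the 6 OST, 3 signal peptidase and 7 translocon genes held none of the 3 motifs. The signal peptidase group lists 5 genes and the translocon group 10, so not all could be searched. Krtcap2, an OST subunit from the list of other glycosylation genes, held ERSE-II letters. A match is a description of letters and does not show binding.

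The other genes of the pathway were taken in 4 further lists. Of 144 measured, 6 were at least 1.5-fold higher and 1 lower, beside 3.60% and 5.33% of all genes, and the median was 0.04. The NP interval was above for 16 (11.1%) and below for 8 (5.56%), beside 7.73% and 9.58% of all genes. Among other signal recognition and translocation genes the median was 0.05, with Hyou1, an ER chaperone, at 64.0 and 98.0 FPKM and Emc4, of the ER membrane insertion complex, at 75.2 and 54.2. Hyou1, Sil1 and Dnajc3 are also counted in the list of luminal chaperones below. The copies of the SRP subunit that binds the signal, Srp54a (4.78 and 4.90 FPKM), Srp54b (9.30 and 8.90) and Srp54c (10.8 and 11.3), overlapped, and their reads can be exchanged. These copies were named after their values were seen. Among other COPII and ER exit genes the median was -0.02. Creb3l2, an ER-bound transcription factor known to act on Sec23a, was at 2.68 (2.26 to 3.10) and 8.03 (7.30 to 8.77) FPKM, and Tmed3, another p24 gene, at 8.69 and 17.3. Sec22c, related to the vesicle fusion protein Sec22b, was at 4.78 and 2.39 FPKM, and Sec22b itself at 34.3 (30.5 to 38.1) and 26.1 (23.0 to 29.2). Other COPI genes had a median of 0.06.

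Genes that fold and degrade proteins in the ER are given beside those that move them, with no test of the difference between lists. Of 26 luminal chaperones and folding enzymes 7 were at least 1.5-fold higher and 0 lower, beside 3.60% and 5.33% of all genes. Their NP interval lay above for 13 and below for 0, beside 7.73% and 9.58%, with a median of 0.19. Among 26 ER-associated degradation genes 3 passed 1.5-fold higher and 0 passed it lower. Their NP interval lay above for 5 and below for 1, with a median of 0.06. The 27 clathrin coat and retromer genes, which act after the Golgi, had 0 genes with the NP interval above and 3 with it below, with a median of -0.03. The 1 of them past 1.5-fold lower was Gga3, with 5.46 FPKM in the Control library and a listed 0 for NP. Of 8 upstream regulators, 3 had an NP interval above that of Control and 5 overlapped. Ddit3, the stress factor CHOP, was listed at 0 in Control and had 23.8 FPKM (20.2 to 27.3) with NP. Eif2ak3, the ER stress kinase PERK, had 4.20 (3.54 to 4.86) and 8.73 (7.80 to 9.67) FPKM. Atf4, which acts downstream of that kinase, had 58.4 (53.2 to 63.5) and 76.4 (70.6 to 82.2) FPKM. Xbp1, whose spliced product is known to drive secretory genes, had 80.8 and 90.7 FPKM, and its intervals overlapped. The table's rows do not separate spliced from unspliced Xbp1 by its ER stress splicing, and activity of the factor was not measured. The other regulators that overlapped were Creb3l3, a liver ER-bound factor (184 and 177 FPKM), the stress sensors Ern1 (13.3 and 12.5) and Atf6 (7.73 and 7.15), and Atf6b (8.60 and 9.14).

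**Figure D5:**
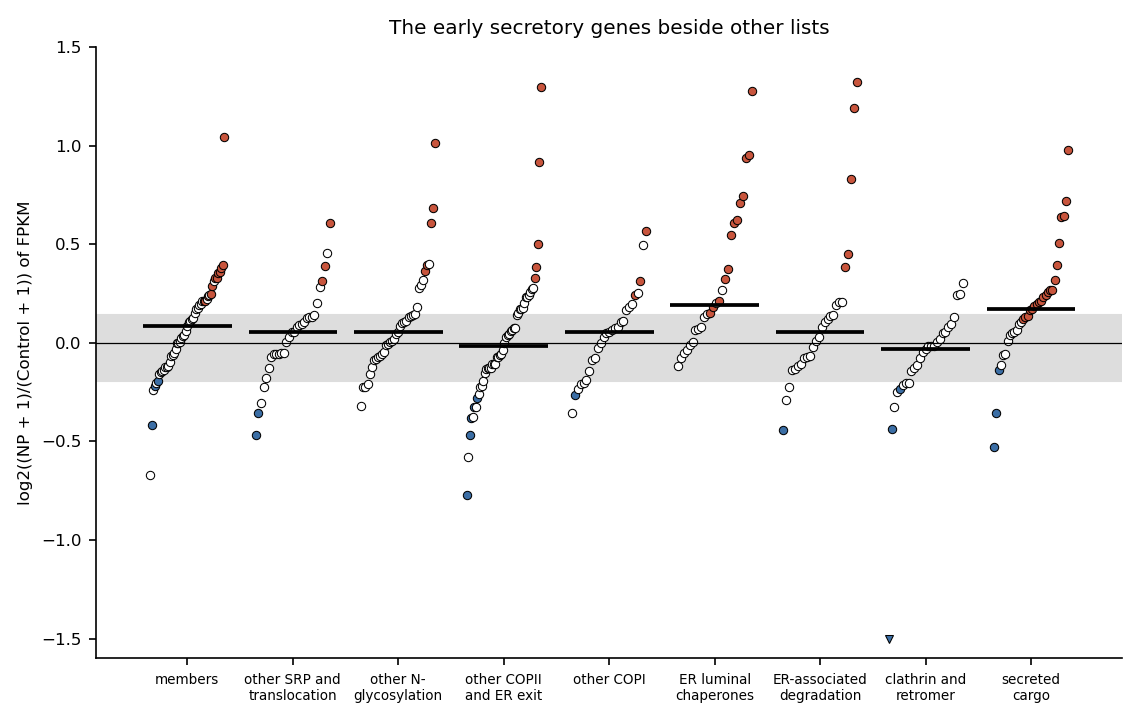
Ratio of NP to Control as log2((NP + 1)/(Control + 1)) of FPKM for the 51 secretory genes and 8 other lists, each point a gene, coloured as in the plot by role group, with list medians as lines and the middle 50% of all genes as a band. The triangle is Gga3, listed at 0 in NP and drawn at the lower edge of the axis. The medians are 0.19 for the chaperones and 0.08 for the secretory genes.

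The genes of the cargo this machinery handles were mostly higher in NP. Of 34 measured genes for secreted plasma proteins, 28 had a ratio above 0, beside 45.6% of all genes. The NP interval lay above for 21 and below for 3, beside 7.73% and 9.58%, and the median was 0.17. Their summed level was 127645 FPKM without and 144712 with NP, a ratio of 1.13, much of it Alb. The summed level of the 51 machinery genes gave a ratio of 1.05, or 1.03 without Preb (2154 and 2219 FPKM), and of the 6 OST genes 1.23. Hp, haptoglobin, was at 1631 and 3210 FPKM and Hpx, hemopexin, at 1459 and 2271, while Apoa4 was at 805 and 559. FPKM are shares of a library, so a few abundant genes affect all others.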

How the data were processed

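Liver RNA-seq values of 1 Control and 1 NP library were used, as deposited. The authors' values are FPKM with interval bounds for each row, in Cufflinks isoform tracking tables, per the file headers. Deposited coverage, a signal not scaled to library size, was used for relative depth only. The submitters' processing notes name TopHat2 2.1.0, Cufflinks 2.2.1.0 and build mm9, with roles, settings, strandedness and mapped totals not given in the sources used here. FPKM were summed over the rows of each gene identifier, and row half-widths combined in quadrature, leaving out covariance between rows. Genes needed a mean of at least 1 FPKM, OK status in all rows and a transcript of at least 300 nt. Small RNA names were left out. Ratios used a pseudocount of 1, which understates differences of low genes. Genes were called at 1.5-fold. Starts count from 1. List symbols absent from the files were matched by gene identifier, except for the 54 genes themselves. All 54 could be named, and of each other list up to 4 genes at each end of its ratios, all regulators and overlapping partners. Marker genes and names marked as chosen after their values were seen are outside this rule. The genes, lists and rules were chosen with earlier results of these data known. Alternatives covered pseudocount, filter, scaling, rows, status, overlaps, zeros and size rule. Python 3.11.15, pandas 2.3.3, numpy 2.4.6 and matplotlib 3.10.9 were used.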

Additional observations from a re-analysis of the deposited data

How the results depend on the processing

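With 1 library per group no replicate could be left out, and no paired analysis was possible because each group has 1 library without a number. Of 135 values recomputed under alternatives, 124 kept within 1.5 times a count or within 0.16 in log2. The latter margin is the median error of a ratio from the library intervals. It is wider than the main median of all 51 genes (0.08). It also exceeds in size those of the signal recognition (0.04), translocon (-0.01), COPII (0.01) and cargo receptor (0.08) groups. Being kept thus says little about these medians. The translocon median ran from -0.03 to 0.02 and the COPII median from -0.03 to 0.07, and both counted as kept. Allowing any row status gave the main values again. Scaling NP to a median ratio of 1, or to the upper quartile, left 1 gene rather than 3 with an NP interval wholly below Control, so that only Sar1b kept this position, and 17 rather than 12 wholly above. The count 1.5-fold higher was 0 with the largest row of each gene and 0 without genes that overlap another. It was 7 at a ratio of 5 to 4. The count 1.5-fold lower was 0 with a pseudocount of 5, with a mean of at least 5 FPKM, with the largest row and at 2-fold, and 2 at a ratio of 5 to 4. With the largest row the COPI median went from -0.11 to 0.13 and the signal peptidase median from 0.22 to 0.12. The OST median stayed between 0.29 and 0.35 and the median of all 51 genes between 0.07 and 0.11, the latter including the version without Preb, added after the values were seen.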

Other observations

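Gene-span rows, whose length is the genomic span and which can also take intronic reads, appeared more often in NP for the secretory genes. Such a row was above 0 for 9 of the 51 genes in Control and 19 in NP, and the 10 that differed were all above 0 in NP only. Over all genes that passed and have such a row, the share above 0 went the other way, 58.8% in Control and 56.1% in NP. The values in these rows were mostly small, with Mcfd2 at 3.93 and Preb at 3.65 FPKM in NP.

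Of 19 pairs of a secretory gene and another gene that shares bases with its span, the other gene was at 0 in both libraries in 16, Mettl14 beside Sec24d and Surf2 beside Surf4 among them. Of all 37146 genes, 50.5% were at 0 in both. The exceptions were Abhd1 beside Preb, Ncstn beside Copa (11.2 and 16.8 FPKM) and Ddx17 beside Kdelr3 (60.0 and 49.4 FPKM). Ddx17 shares 33 bases with Kdelr3.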
